A study of Mus musculus with 15 samples.

Results

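The kinase inhibitor A83-01 was applied to endometrial organoids from mice with a conditional deletion of *Smad2* and *Smad3* in uterine epithelium, and the transcriptome was compared with that of the same kind of organoids given the DMSO vehicle. The comparison took in 4 samples labelled *Smad2/3* cKO + A83-01 and 4 labelled *Smad2/3* cKO, out of 15 in the series. Its members were all genes with a mean normalized count of at least 10 over these 8 samples, which were 12998 of the 16729 genes in the series. The remaining 3731 genes were below that level and were not tested.

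Endometrial organoids are bodies that epithelial cells of the uterus form in Matrigel, in a medium with WNT3a, R-spondin, Noggin, EGF, FGF10 and HGF. The *Smad2/3* cKO mice were female, carried floxed alleles of both genes (*Smad2* flox/flox; *Smad3* flox/flox) together with *Ltf*-cre, and were of a mixed C57BL/6J and 129S5/SvEvBrd background and, as far as the methods state an age, 6 to 8 weeks old. The control mice carried the floxed alleles without Cre. *Ltf*-cre is a Cre recombinase made from the lactoferrin gene, which is active in uterine epithelium and responds to estradiol, so that a cell deletes the floxed exons only once it has made lactoferrin. The share of cells that kept an undeleted allele was not measured here. A83-01 was used at 500 nM. The 3 control + vehicle and 4 control + A83-01 samples were used to show how the same inhibitor acted when both genes were intact. The methods state that the samples of a condition came from different mice. The sample numbers in the labels differ within each group, but 3 of them occur in both control groups, 1 in both *Smad2/3* cKO groups and 1 under both genotypes, and whether an equal number marks the same mouse is not stated.

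TGFβ, activin and nodal ligands bind pairs of receptors at the cell surface, and the type 1 receptors ALK4, ALK5 and ALK7 then phosphorylate SMAD2 and SMAD3, which join SMAD4 and enter the nucleus to switch genes on or off. Bone morphogenetic proteins (BMPs) use other type 1 receptors and SMAD1, SMAD5 and SMAD9, with the *Id* genes among their best known targets. A83-01 occupies the kinase of ALK4, ALK5 and ALK7. In uterine epithelium the TGFβ branch is known for restraining growth, and SMAD2/3-driven genes include inhibitors of the same pathway such as *Smad7*, *Skil* and *Pmepa1*.

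Promoters of 4 genes on which the results below turn are shown first: *Nedd9*, the gene with the lowest p in these organoids, and *Tgfb2*, *Cuzd1* and *Car4*, which responded to A83-01 in control organoids far more than in these. Each is the stretch of 250 bases before the RefSeq start (GRCm38.p6), printed 5′ to 3′ on the strand of the gene, and capitals mark GTCTG or its reverse complement CAGAC, the short sequence that SMAD3 and SMAD4 are known to bind.
Nedd9 (chr13:41359002-41359251, minus strand): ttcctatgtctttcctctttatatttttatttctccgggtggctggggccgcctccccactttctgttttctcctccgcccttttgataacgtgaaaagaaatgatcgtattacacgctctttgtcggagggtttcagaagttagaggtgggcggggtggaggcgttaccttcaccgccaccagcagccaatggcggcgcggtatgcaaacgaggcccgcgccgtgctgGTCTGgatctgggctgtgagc
Tgfb2 (chr1:186705990-186706239, minus strand): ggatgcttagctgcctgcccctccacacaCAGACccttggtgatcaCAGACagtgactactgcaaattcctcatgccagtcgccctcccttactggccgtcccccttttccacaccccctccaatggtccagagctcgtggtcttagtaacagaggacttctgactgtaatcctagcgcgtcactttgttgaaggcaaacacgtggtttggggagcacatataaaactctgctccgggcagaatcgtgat
Cuzd1 (chr7:131322293-131322542, minus strand): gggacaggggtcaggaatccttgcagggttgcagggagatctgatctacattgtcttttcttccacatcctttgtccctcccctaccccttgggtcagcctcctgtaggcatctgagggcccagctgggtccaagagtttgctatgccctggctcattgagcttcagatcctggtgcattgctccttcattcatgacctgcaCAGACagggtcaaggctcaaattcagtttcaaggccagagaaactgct
Car4 (chr11:84957504-84957753, plus strand): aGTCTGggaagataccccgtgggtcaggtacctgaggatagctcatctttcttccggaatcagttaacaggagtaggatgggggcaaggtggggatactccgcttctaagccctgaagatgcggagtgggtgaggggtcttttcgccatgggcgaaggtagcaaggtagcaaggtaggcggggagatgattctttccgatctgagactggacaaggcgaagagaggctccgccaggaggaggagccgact
The *Tgfb2* stretch holds the 5 letters at 2 places and the other 3 at 1 place each. They are common, being present on either strand in 42.2% of 32851 promoters of this length and in 40.6% of the 12644 that belong to genes tested here, so a match is a description of the sequence and not a binding site. Of the genes tested, 9899 had a promoter in the table.

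The libraries were of like size, with normalized counts that summed to between 22171502 and 22779453 per sample with vehicle and between 23208569 and 23870175 with A83-01 in *Smad2/3* cKO organoids. Log2 values correlated between samples at 0.933 to 0.953 within the first group, 0.937 to 0.970 within the second and 0.915 to 0.970 between them. The samples were epithelial by their markers. All 10 epithelial markers were present, from a sum of 137056 to 252756 over the 8 samples, whereas 8 stromal markers summed to at most 172, 4 smooth muscle markers to 30.4 to 86.5 3 endothelial markers to 22.6 to 61.2 and the 1 marker of red blood cells in the file to at most 5.22. The 2 mesothelial markers summed to 1612 to 12308 and the 3 of oviduct secretory epithelium to 18551 to 43881, with overlapping groups. One library stood apart for genes of macrophages. *Lyz2*, a lysozyme of macrophages, had normalized counts of 0.9402, 3372, 86.9 and 4.79 in *Smad2/3* cKO replicates 1 to 4 and 0 to 8.73 in *Smad2/3* cKO + A83-01, and *Adgre1*, the F4/80 antigen, had 0, 351, 7.76 and 4.96 with vehicle and 0 to 1.08 with A83-01. Over the 7 leukocyte markers the sums ranged from 2119 to 8274 in *Smad2/3* cKO and from 4034 to 8022 with A83-01, and *Cd68* was the largest part of each sum other than that of *Smad2/3* cKO replicate 2, where it was *Lyz2*. Among the named genes 45 had an unadjusted p below 0.05 in limma, and without the second *Smad2/3* cKO library the 45 kept their direction and 14 no longer had that p, namely *Smad7*, *Skil*, *Ltbp2*, *Cuzd1*, *Mmp7*, *Itga2*, *Tcf7l2*, *Slc12a2*, *Cyp2s1*, *Pfkl*, *Hk1*, *Tpi1*, *Pgk1* and *Eno1*. *Ovgp1*, a gene of oviduct secretory cells, was at 184, 2280, 96.1 and 100.2 in the A83-01 group.

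The deposited values cover *Smad2* and *Smad3* as whole genes and not their floxed exons, so they do not check the deletion. *Smad2* had normalized counts of 924, 863, 892 and 821 in *Smad2/3* cKO and 813, 1211, 854 and 804 with A83-01, against 1335, 1132 and 1045 in control + vehicle. *Smad3* had 1170, 1640, 1516 and 1977 with vehicle and 1659, 797, 1689 and 1648 with A83-01, against 1532, 1741 and 1599. In these organoids A83-01 gave a log2 fold change of 0.053 for *Smad2* (95% confidence interval −0.29 to 0.395) and −0.16 for *Smad3* (−0.74 to 0.41), and the groups overlapped for both. *Smad2/3* cKO + A83-01 replicate 2 held the highest *Smad2* and the lowest *Smad3* of its group.

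No gene passed the thresholds between *Smad2/3* cKO + A83-01 and *Smad2/3* cKO. A gene was called where limma gave it a p below 0.01 after Benjamini-Hochberg adjustment and a fold past 1.4 in either direction, which was so for 0 of 12998 genes (0%), and the smallest adjusted p was 0.0501. At an unadjusted p below 0.05 there were 554 genes (4.26%), 320 of them higher with A83-01 (2.46%) and 234 lower (1.80%). That share is below the 0.05 that this threshold gives on average where nothing changed. The samples of both groups did not overlap for 377 genes (2.90%), 245 higher and 132 lower, and 1693 genes (13.0%) had a fitted fold past 1.4. With 4 samples against 4, a share close to that 2.90% lacks overlap where nothing changed. For genes named below for a low p, a lack of overlap is no further support. The same inhibitor changed 295 of 13009 genes in control organoids (2.27%), 155 of which rose and 140 fell. With each control sample left out in turn these counts were 37 to 158 and 12 to 154, the lowest without control + vehicle replicate 2, and they moved by over 1.5 times without any 1 of the 3 vehicle samples or without control + A83-01 replicate 3 or 4. Since these are bulk samples, fewer cells of a kind and less RNA per cell cannot be told apart in any of these values.

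Over all genes tested, the comparison was no less precise than that in control organoids. The median standard error of a log2 fold change was 0.215 in *Smad2/3* cKO organoids and 0.276 in control organoids. For 9218 genes, 70.9% of those tested, the 95% interval lay within 1 on the log2 scale on either side of 0, so changes larger than that were outside the interval for them. The corresponding share in control organoids was 49.4%. Genes that responded in control organoids were bounded less tightly here. Such an interval was found in *Smad2/3* cKO organoids for 93 of the 155 that rose in control organoids. It was found for 40 of the 113 tested here among those that fell. Over the 12632 genes tested in both genotypes, the median size of the log2 fold change was 0.155 in *Smad2/3* cKO organoids and 0.316 in control organoids.

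The gene nearest to the threshold was *Nedd9*, which encodes a scaffold protein of focal adhesions. It was named, as were the other genes of this and the next 2 paragraphs, for its low p after the values had been seen. *Nedd9* had normalized counts of 1906, 2938, 2688 and 2155 in *Smad2/3* cKO and 887, 989, 810.0 and 932 with A83-01. All 4 A83-01 samples were below all 4 vehicle samples, and they lay close together. The log2 fold change was −1.402 (−1.75 to −1.06), with an adjusted p of 0.0501 in limma. In control organoids *Nedd9* was at 4788, 5729 and 8356 with vehicle and at 1723, 2575, 1569 and 1242 with A83-01, a fall of log2 fold change −1.83 that passed the thresholds (adjusted p = 0.0058). The A83-01 effect differed between the genotypes by 0.43 (−0.25 to 1.11), which was not called. The order of the groups was thus control + vehicle highest and *Smad2/3* cKO + A83-01 lowest, with control + A83-01 and *Smad2/3* cKO overlapping between them.

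The next 9 genes by p did not pass the thresholds either, and their adjusted p ranged from 0.41 to 0.99. *Baiap2l2*, which shapes the membrane of microvilli, was at 67.8, 69.9, 67.5 and 84.8 with vehicle and 159, 252, 209 and 285 with A83-01. Every A83-01 value was above every vehicle value, and the log2 fold change was 1.601 (1.06 to 2.14). The kallikrein proteases *Klk1b27* and *Klk1b21*, members of a cluster of near-identical genes between which reads may have been split, had log2 fold changes of 1.84 and 1.503. *Klk1b27* was at 75.03, 58.8, 63.8 and 128 with vehicle and 414, 270.2, 226 and 243 with A83-01. *Klk1b21* was at 788, 1226, 991 and 2414 with vehicle and 3444, 2952, 3302 and 4446 with A83-01, again without overlap.

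Genes of ciliary structure were also in this group. *Crocc*, which encodes rootletin of the ciliary rootlet, was at 794, 745, 929.6 and 1092 with vehicle and 1598, 1686, 1350 and 1999 with A83-01 (log2 fold change 0.899, interval 0.53 to 1.27). *Rsph9*, a part of the radial spoke of motile cilia, was at 147, 179.7, 152 and 140.0 with vehicle and 225, 332, 305 and 326 with A83-01 (log2 fold change 0.93, interval 0.49 to 1.37). Neither gene had overlapping groups. The other genes were *Syt11*, of vesicle traffic, at a log2 fold change of 2.02, *Soat1*, which esterifies cholesterol, at a log2 fold change of 0.75, the kinase *Stk10* at a log2 fold change of −1.37 and *Ank*, which exports pyrophosphate precursors, at a log2 fold change of −1.25. *Ank* was at 838, 843, 1212 and 476 with vehicle and 283, 342, 458 and 283 with A83-01 in these organoids, whereas in control organoids it was at 7712, 7795 and 6502 with vehicle and 1334, 1539, 635 and 629 with A83-01 (log2 fold change −2.94, adjusted p = 0.0018). *Cftr*, the chloride channel of secretory epithelia, ranked just after these and was at 26.8, 249, 152 and 89.6 with vehicle and 19.8, 1.33, 14.7 and 4.12 with A83-01, a log2 fold change of −3.65 (−5.53 to −1.77) that was −3.205 without *Smad2/3* cKO replicate 2.

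Genes that responded to A83-01 in control organoids were then followed in *Smad2/3* cKO organoids, in samples other than the control samples that chose them. Of the 155 genes that rose in control organoids all were tested here, and of the 140 that fell 113 were, the other 27 being below the minimum level. The median log2 fold change of the 155 was 2.61 in control organoids and 0.28 in *Smad2/3* cKO organoids. That of the 113 was −2.08 and −0.32. The control medians come from the values that chose these genes. Over all genes tested the medians were −0.015 and 0.0011. In 137 of the 155 the estimate was above 0, and in 85 of the 113 it was below 0. A fold past 1.4 in the same direction was reached by 41 of the 155 and 38 of the 113, beside 13.0% of all genes that reached it in either direction. An unadjusted p below 0.05 in that direction was reached by 19 and 10, to be read beside the 2.46% and 1.80% of all genes that reached it. In the opposite direction the fold was reached by 0 and 4, and that p by 0 and 1. Across the 12632 genes tested in both genotypes the log2 fold changes correlated at 0.318 (Pearson) and 0.269 (Spearman), which is a description, since genes are not independent of one another.

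**Figure D1:**
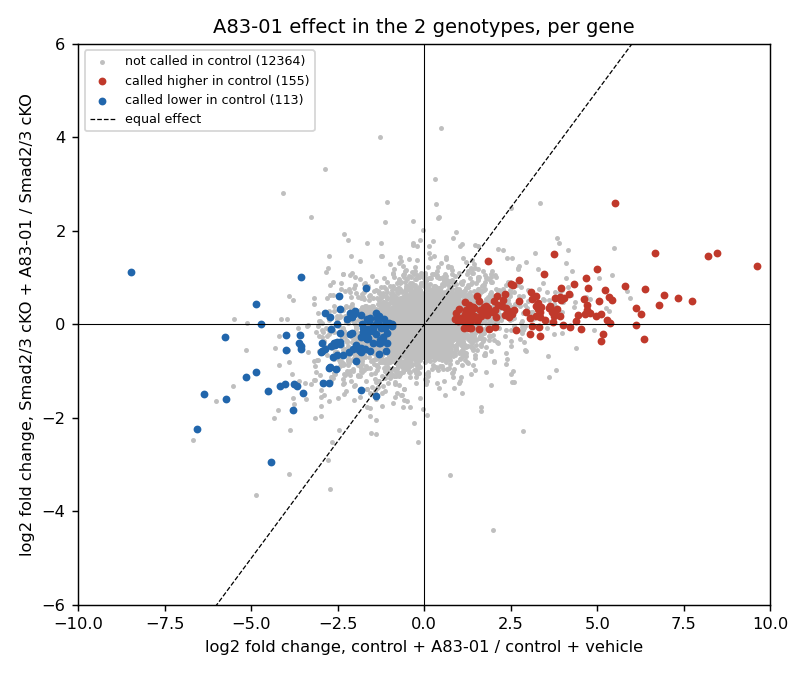
Each point is 1 of 12632 genes, with its A83-01 log2 fold change in control organoids (x axis, n = 3 and 4) and in *Smad2/3* cKO organoids (y axis, n = 4 and 4). Red and blue points are the 155 and 113 genes called in control organoids, which spread widely along the x axis, mostly away from the dashed line of equal effect. Their medians on the y axis are 0.28 and −0.32, and 41 and 38 of them have a fold past 1.4 in the same direction.

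The difference between the genotypes in the A83-01 effect was tested in 1 fit of all 15 samples. It was called for 72 of 13066 genes (0.551%), 13 of them with a higher and 59 with a lower log2 fold change in *Smad2/3* cKO organoids. All 13 had fallen in control organoids, and 57 of the 59 had risen there. In *Smad2/3* cKO organoids the 59 had a median log2 fold change of 0.19, against 3.69 in control organoids, and 8 of them had an unadjusted p below 0.05. The 10 of the 13 that could be tested had a median of 0.18, and 2 of them reached that p. The values of both genotypes chose these genes. Their medians and their directions in control organoids are therefore no further support for a difference.

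*Tgfb2*, which encodes a TGFβ ligand, was at 129, 229 and 235 in control + vehicle and 9135, 14802, 17364 and 13948 in control + A83-01, and at 26497, 21296, 12858 and 33790 in *Smad2/3* cKO and 41707, 23291, 22364 and 30520 with A83-01. The inhibitor raised it by a log2 fold change of 6.13 in control organoids, whereas the estimate in *Smad2/3* cKO organoids was 0.36 (−0.31 to 1.03), and the difference was −5.77 (limma adjusted p = 9.8e-06). Both *Smad2/3* cKO groups overlapped each other and lay above every control + vehicle sample by more than an order of magnitude. *Id4*, an inhibitor of helix-loop-helix factors and a BMP target, followed the same course with 858, 618, 395.6 and 305 in *Smad2/3* cKO and 660.1, 662, 334 and 416 with A83-01, against 12.7, 18.2 and 4.55 with vehicle and 258, 239, 134 and 128 with A83-01 in the control groups (difference −4.02, adjusted p = 0.0031). *Lrat*, which stores retinol as esters, had 9426, 7034, 6788 and 12248 with vehicle and 12916, 10489, 8685 and 13546 with A83-01, against 632, 561 and 1202 with vehicle and 4356, 6878, 9918 and 8415 with A83-01 (difference −2.85, adjusted p = 0.0024).

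The 5 genes with the lowest difference were *Car4*, *Slc46a2*, *Akr1b7*, *Nptx1* and *Cuzd1*. *Car4*, a carbonic anhydrase of the cell surface, was at 0, 0 and 1.78 in control + vehicle, 624, 452, 1390 and 3832 in control + A83-01, 2508, 2030, 881 and 4468 in *Smad2/3* cKO and 15562, 2153, 2045 and 9122 in *Smad2/3* cKO + A83-01. Its near absence in control + vehicle means that the size of the difference, −8.38, depends on the pseudocount, but the *Smad2/3* cKO groups overlapped and gave 1.24 (−0.305 to 2.79). *Cuzd1*, a secreted protein of uterine epithelium, was at 25.7, 32.6 and 13.2 in control + vehicle and 6392, 5231, 6655 and 10201 in control + A83-01. In *Smad2/3* cKO organoids it was at 11041, 2937, 2519 and 12811 with vehicle and 17803, 20468, 6855 and 23779 with A83-01, and the groups overlapped. Its estimate in *Smad2/3* cKO organoids was 1.46 (0.16 to 2.75), or 1.14 without *Smad2/3* cKO replicate 2, and the difference was −6.75 (adjusted p = 0.0003).

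*Akr1b7*, an aldo-keto reductase, was listed at 0, 2.68 and 5.31 in control + vehicle and 618, 482, 1820 and 1946 in control + A83-01. It was at 1246, 287, 462 and 883 in *Smad2/3* cKO and 1664, 2986, 1597 and 1237 with A83-01, with a log2 fold change of 1.52 (0.55 to 2.49, unadjusted p = 0.0058 in limma), and the highest vehicle sample was within the A83-01 range. *Nptx1*, a secreted pentraxin, was at 5142, 3250, 4736 and 5696 with vehicle and 9276, 6253, 6305 and 6032 with A83-01, where every A83-01 sample was above every vehicle sample (log2 fold change 0.57, interval 0.13 to 1.02). *Slc46a2*, a solute carrier, was at 802, 997, 795 and 1851 with vehicle and 2247, 797, 1272 and 2067 with A83-01 (log2 fold change 0.50, interval −0.31 to 1.31). In control organoids *Nptx1* had ranged from 1.78 to 29.6 with vehicle and from 739 to 4079 with A83-01, and *Slc46a2* from 0 to 3.56 and from 193 to 1370.

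Other listed genes among the 59 had the same form, with both *Smad2/3* cKO groups overlapping and far above control + vehicle. *Csf1*, the growth factor of macrophages, was at 53274, 45553, 25595 and 54824 with vehicle and 86616, 55802, 33039 and 43609 with A83-01, against 2047, 3014 and 4823 in control + vehicle. *Akr1c18*, which inactivates progesterone, was at 113862, 95623, 100815 and 147087 with vehicle and 133837, 82169, 129039 and 137939 with A83-01, against 4650, 4247 and 5452. *Cyp17a1*, an enzyme of androgen synthesis, was listed at 0 in all 3 control + vehicle samples and was at 124, 85.7, 60.4 and 273 with vehicle and 215, 162, 105 and 199.5 with A83-01. The water channel *Aqp8* was at 79691 to 117605 with vehicle and 109637 to 129819 with A83-01, and the keratin *Krt6b* at 1689 to 4871 with vehicle and 1927 to 6438 with A83-01. Their log2 fold changes in *Smad2/3* cKO organoids were 0.26, 0.069, 0.51, 0.303 and 0.33, and each interval included 0.

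The 5 genes with the highest difference were *Fn1*, *Slc6a2*, *Kcng1*, *Bend5* and *Chrna1*. *Fn1*, which encodes fibronectin of the matrix, was at 1884, 3828 and 5624 in control + vehicle and 4.64, 10.5, 5.55 and 18.6 in control + A83-01, and was low in these organoids at 1.77, 0.633, 17.9 and 19.3 with vehicle and 9.47, 21.2, 14.2 and 9.86 with A83-01. *Chrna1*, a subunit of the acetylcholine receptor of muscle, was at 1884, 1817 and 4403 in control + vehicle and 80.5, 53.1, 114 and 157 in control + A83-01. In *Smad2/3* cKO organoids it was at 29.8, 36.4, 59.1 and 51.96 with vehicle and 32.2, 36.5, 63.3 and 44.7 with A83-01, and its interval was −0.81 to 0.81. *Slc6a2*, the noradrenaline transporter, and *Kcng1*, a potassium channel subunit, had values of 0 in each of the 8 samples of *Smad2/3* cKO organoids, and *Bend5*, of the BEN domain family, was at 1.61 to 15.98 with vehicle and 5.06 to 10.8 with A83-01. These 3 genes were below the minimum level in *Smad2/3* cKO organoids and no fold is given for them. They entered the test of the difference through their levels in control organoids. A gene at 0 with vehicle cannot fall further. The called differences of *Slc6a2* and *Kcng1* therefore only restate their falls in control organoids (log2 fold changes of −6.85 and −6.46).

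**Figure D2:**
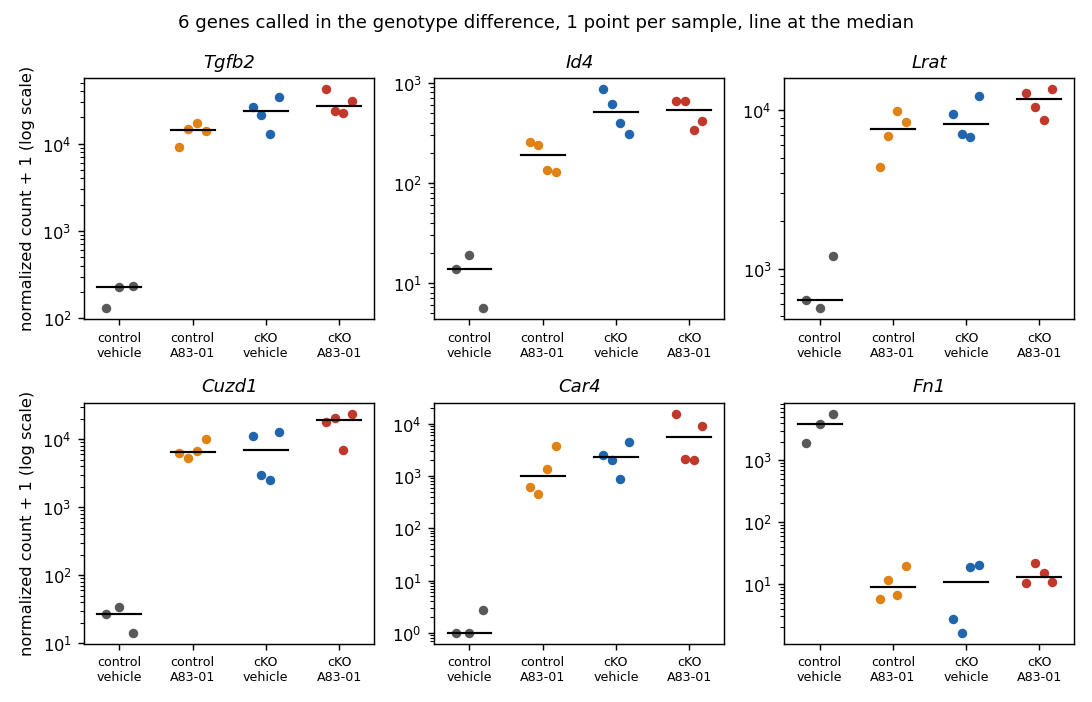
Normalized counts plus 1 on a log axis, 1 point per sample in the 4 groups, with a line at the median, for 6 genes called in the genotype difference. In every panel both *Smad2/3* cKO groups overlap, and for *Tgfb2*, *Id4*, *Lrat*, *Cuzd1* and *Car4* they lie above control + vehicle while for *Fn1* they lie below it.

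The genes that SMAD2/3 itself is known to drive were taken next. Of 29 genes of the list of SMAD2/3 feedback and direct targets in the series, 24 were tested in *Smad2/3* cKO organoids, and 0 passed the thresholds. An unadjusted p below 0.05 was given to 5 members, all 5 lower with A83-01, where 1.80% of all genes were lower at that p, and 16 of the 24 had an estimate below 0. The median log2 fold change was −0.16, beside 0.0011 over all genes. In control organoids 6 of 25 fell and 0 rose, with a median of −0.80. Leaving out each library in turn gave 2 to 6 lower members at that p, with 2 left without *Smad2/3* cKO replicate 2 or 3 or without *Smad2/3* cKO + A83-01 replicate 4, and 3 without *Smad2/3* cKO replicate 1. It also gave 0 to 2 higher members at that p, with 2 higher without *Smad2/3* cKO replicate 4.

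*Pmepa1*, which holds SMAD2 and SMAD3 away from their receptors, was at 32.03, 178, 64.7 and 16.3 in *Smad2/3* cKO and 2.46, 3.86, 5.199 and 17.2 with A83-01. Of the A83-01 samples, 3 were below every vehicle sample, and replicate 4 of each group lay between the rest. The log2 fold change was −2.95 (−4.703 to −1.19, unadjusted p = 0.0039, adjusted p = 0.99 in limma). In control organoids it went from 1327, 903 and 821 to 60.1, 42.1, 28.4 and 55.5, a log2 fold change of −4.44 (adjusted p = 0.00025). The difference between the genotypes was 1.497 (−0.48 to 3.48) and was not called.

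*Smad7*, the inhibitory SMAD that feeds back on the receptors, was at 13.8, 55.5, 90.4 and 16.5 with vehicle and 19.03, 6.8, 8.595 and 4.697 with A83-01. The vehicle samples fell into high values in replicates 2 and 3 and low values in replicates 1 and 4, and the low ones were within the A83-01 range. The log2 fold change was −1.82 (−3.38 to −0.27) here and −3.79 in control organoids, where the groups were 191, 194 and 270.3 with vehicle and 10.4, 14.8, 14.9 and 20.2 with A83-01. *Ltbp2*, of the latent TGFβ binding protein family, was at 282, 232, 121 and 129 with vehicle and 31.2, 202, 59.7 and 27.8 with A83-01 (log2 fold change −1.63, interval −2.95 to −0.31). *Skil*, a corepressor of SMADs, was at 256, 498, 546 and 294 with vehicle and 201, 100.1, 330.2 and 192 with A83-01 (log2 fold change −0.996, interval −1.83 to −0.16). *Ccn2*, the matrix protein also known as connective tissue growth factor, was at 2959, 1332, 4408 and 1571 with vehicle and 1220, 1276, 1520 and 946 with A83-01 (log2 fold change −0.902, interval −1.67 to −0.14), against 21655, 23298 and 10750 in control + vehicle. The groups overlapped for all 5 genes.

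Without *Smad2/3* cKO replicate 2, the library with macrophage genes, the log2 fold changes were −2.34 for *Pmepa1* (unadjusted p = 0.012 in limma), −1.16 for *Ccn2* (0.0052), −1.58 for *Smad7* (0.072), −0.86 for *Skil* (0.065) and −1.51 for *Ltbp2* (0.0505). That of *Nedd9* was −1.303, with an adjusted p of 0.17 in limma. The direction was the same for all 6 genes. Other libraries mattered as well, and *Ccn2* was at −0.59 without *Smad2/3* cKO replicate 3. Over all single omissions the highest unadjusted p in limma was 0.012 for *Pmepa1* and 0.069 for *Ccn2*. It was 0.085 for *Smad7*, 0.069 for *Skil* and 0.060 for *Ltbp2*.

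**Figure D3:**
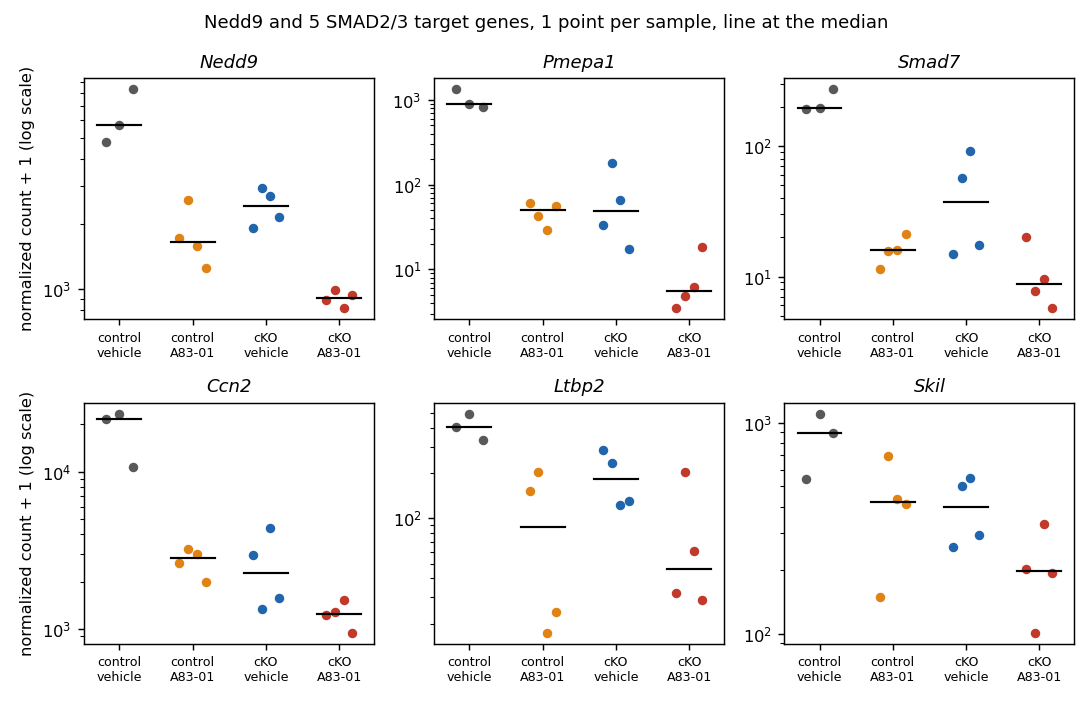
Normalized counts plus 1 on a log axis, 1 point per sample in the 4 groups, with a line at the median, for *Nedd9* and the 5 SMAD2/3 target genes with an unadjusted p below 0.05. In each panel control + vehicle has the highest median and *Smad2/3* cKO + A83-01 the lowest, and only *Nedd9* has no overlap between the *Smad2/3* cKO groups.

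Other members that fell in control organoids were already low in both groups here. *Fst*, which encodes the activin antagonist follistatin, was at 380.2, 1183 and 247 in control + vehicle, 5.22, 17.5, 9.39 and 0 in control + A83-01, 14.5, 22.98, 48.6 and 11 in *Smad2/3* cKO and 3.86, 32.4, 1.95 and 6.46 with A83-01, with an interval of −3.29 to 0.32 in *Smad2/3* cKO organoids. *Angptl4*, an inhibitor of lipoprotein lipase, was at 632, 458 and 583 in control + vehicle and 105, 58.5, 63.6 and 132 in control + A83-01, and at 47.99, 18.2, 64.1 and 24.8 in *Smad2/3* cKO and 39.9, 29.7, 33.1 and 27.4 with A83-01, with an interval of −1.09 to 0.897. The 4 members with the highest mean level were *Cdkn1a*, *Ccn1*, *Bhlhe40* and *Junb*, and their log2 fold changes in *Smad2/3* cKO organoids were 0.23, 0.27, 0.35 and −0.04. *Fstl3*, another follistatin, was at a log2 fold change of 0.50 (−0.011 to 1.01).

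**Figure D4:**
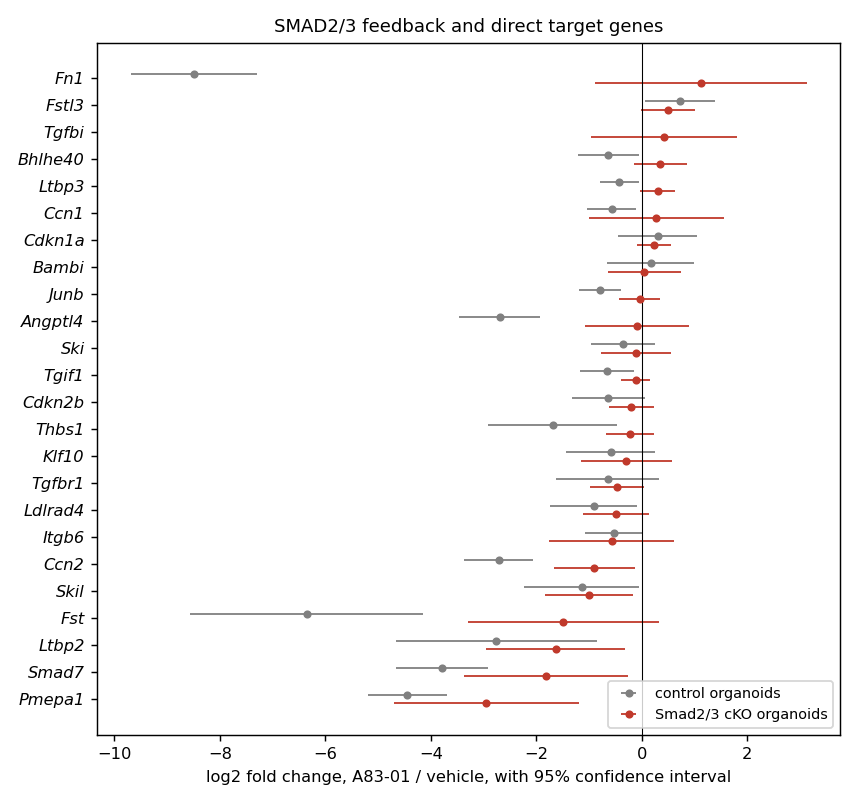
Log2 fold change with A83-01 and its 95% confidence interval for the 24 tested members of the SMAD2/3 target list, ordered by the estimate in *Smad2/3* cKO organoids (red) and shown with control organoids (grey, absent for *Tgfbi*). In *Smad2/3* cKO organoids 5 intervals lie wholly below 0, those of *Pmepa1*, *Smad7*, *Ltbp2*, *Skil* and *Ccn2*.

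Ligands, receptors and SMADs of the TGFβ and activin branch held no call. Of 22 tested, 0 passed the thresholds and 0 had an unadjusted p below 0.05, with a median of −0.045. Besides *Tgfb2*, the ligand *Tgfb3* was at 4051, 3666, 2050 and 4357 with vehicle and 4096, 3851, 4073 and 4995 with A83-01 (log2 fold change 0.32, interval −0.17 to 0.81), and *Gdf15*, a distant member of the family, was at a log2 fold change of 0.24 (−0.13 to 0.61). The receptor *Tgfbr2* was at 4264, 3527, 4753 and 2875 with vehicle and 3190, 4039, 3994 and 2798 with A83-01 (log2 fold change −0.13, interval −0.54 to 0.28). Genes for the kinases that A83-01 blocks, *Tgfbr1* (ALK5) and *Acvr1b* (ALK4), had log2 fold changes of −0.47 (−0.99 to 0.041) and −0.21 (−0.79 to 0.37).

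In the BMP pathway 24 genes were tested, 0 passed, and the median was 0.072. *Id1* was at 952, 1114, 1482 and 603 in *Smad2/3* cKO and 462, 913, 1307 and 773 with A83-01 (log2 fold change −0.29, interval −1.04 to 0.46), and *Id3* at 659.8, 775, 1187 and 521 with vehicle and 423, 920.2, 1328 and 784 with A83-01 (log2 fold change 0.09, interval −0.68 to 0.86). In control organoids *Id1* was at 534, 258 and 347 with vehicle and 809, 398, 591 and 883 with A83-01, and *Id3* at 118, 71.5 and 161 with vehicle and 649.8, 229, 569.7 and 817 with A83-01. The A83-01 effect on *Id1* differed between the genotypes by −1.11 (−2.21 to −0.0014) and that on *Id3* by −2.11 (−3.41 to −0.81), and neither was called. *Chrd*, which encodes the BMP antagonist chordin, was at 22.1, 37.5, 18.9 and 18.99 with vehicle and 47.8, 53.8, 43.8 and 56.8 with A83-01, without overlap (log2 fold change 1.07, interval 0.29 to 1.86, unadjusted p = 0.012 in limma).

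Retinoid genes were examined because vitamin A metabolism is active in the endometrium, where *Aldh1a2* makes retinoic acid and *Cyp26a1* destroys it. Of 25 tested, 0 passed in *Smad2/3* cKO organoids and 5 rose in control organoids. The median was 0.37 here and 0.38 in control organoids, with 19 of 25 above 0 here. With each *Smad2/3* cKO library left out in turn, the median here was lower, from 0.19 to 0.33. In these organoids 1 gene had an unadjusted p below 0.05. *Aldh1a2* was at 3779, 9373, 10579 and 18119 in *Smad2/3* cKO and 20208, 5012, 14133 and 19651 with A83-01, and the wide spread within each group gave an interval of −0.66 to 1.68. *Cyp26a1* was at 133, 430.3, 227 and 412 with vehicle and 786, 250.4, 721 and 581 with A83-01 (log2 fold change 0.98, interval −0.011 to 1.98). In control organoids *Aldh1a2* was at 785, 496 and 1056 with vehicle and 8102, 9480, 15539 and 14326 with A83-01 and *Cyp26a1* at 23.6, 8.503 and 7.6 with vehicle and 469, 232, 334 and 283 with A83-01, and the differences of −3.43 and −3.68 had adjusted p of 0.021 and 0.011, above the threshold of 0.01. *Rdh11* and *Rdh12*, which reduce retinal, were at a log2 fold change of 0.398 (−0.18 to 0.97) and 0.83 (−0.18 to 1.83). The single gene at that p was *Rdh10*, which oxidizes retinol to retinal, at 4975, 8774, 5942 and 3428 with vehicle and 3978, 3301, 3141 and 2679 with A83-01 (log2 fold change −0.75, interval −1.32 to −0.19, and −0.52 without *Smad2/3* cKO replicate 2).

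Of 46 WNT pathway genes tested, 0 passed and 17 had an estimate above 0, with a median of −0.13. In control organoids 1 of 47 rose and 5 fell, with a median of −0.82. The ligand *Wnt9a* was at 11.2, 19.5, 52.4 and 22.8 in *Smad2/3* cKO and 22.6, 5.13, 28.3 and 16.4 with A83-01, against 185, 197 and 121 in control + vehicle and 15.2, 29.4, 5.68 and 10.5 in control + A83-01. Among the frizzled receptors, *Fzd1* was at a log2 fold change of −0.26 (−0.88 to 0.36) and *Fzd7* at a log2 fold change of −1.04 (−2.23 to 0.15). *Fzd3* was at 14.04, 18, 29.4 and 158 with vehicle and 15.1, 11.1, 19.2 and 23.3 with A83-01, where 1 vehicle sample was far above the other 7 values (log2 fold change −0.96, interval −2.54 to 0.61). *Fzd10* was below the minimum level, at 0.952, 13.5, 10.1 and 9.76 with vehicle and 1.104, 0, 5.37 and 3.13 with A83-01, against 164, 181 and 297 in control + vehicle. *Tcf7l2*, a transcription factor at the end of the pathway, was at 125, 144, 91.4 and 95.5 with vehicle and 72.1, 68.6, 81.4 and 41.2 with A83-01, without overlap (log2 fold change −0.801, interval −1.47 to −0.14). *Ror2* and *Wnt5b*, a receptor and a ligand of the branch that does not use β-catenin, were at a log2 fold change of −1.59 (−3.92 to 0.75) and 1.08 (−0.57 to 2.73).

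Genes of glycolysis and the hypoxia response had the most members at low p. None of the 26 passed the thresholds, but 9 had an unadjusted p below 0.05, all 9 higher with A83-01, where 2.46% of all genes were higher at that p. In all, 23 of 26 estimates were above 0, and the median was 0.48. In control organoids 1 of 26 rose and the median was 0.30. *Aldoc*, an aldolase, was at 574, 492, 619.8 and 681 in *Smad2/3* cKO and 737, 1535, 974 and 1279 with A83-01, without overlap (log2 fold change 0.89, interval 0.39 to 1.39). *Aldoa*, the main aldolase, was at 32641, 27613, 33802 and 40229 with vehicle and 43039, 53080, 40832 and 62488 with A83-01, again without overlap (log2 fold change 0.56, interval 0.16 to 0.97). *Gpi1*, the isomerase of the pathway, was at 8247, 6713, 8241 and 10506 with vehicle and 10832, 13299, 9993 and 16918 with A83-01 (log2 fold change 0.59, interval 0.16 to 1.01).

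The remaining members at that p were kinases and later enzymes. *Pfkp* and *Pfkl*, the phosphofructokinases, were at a log2 fold change of 0.91 (0.19 to 1.63) and 0.51 (0.044 to 0.98), *Hk1*, a hexokinase, at a log2 fold change of 0.33 (0.017 to 0.64), *Tpi1*, an isomerase, at a log2 fold change of 0.48 (0.04 to 0.93), *Pgk1*, a kinase that makes ATP, at a log2 fold change of 0.48 (0.03 to 0.93) and *Eno1*, enolase, at a log2 fold change of 0.44 (0.061 to 0.82). The enzymes *Pkm* and *Ldha*, at the end of the pathway, were not among them, at a log2 fold change of 0.46 (−0.055 to 0.98) and 0.46 (−0.073 to 0.999). With each library left out in turn, 4 to 14 members were higher and 0 to 1 lower at that p, and the median ran from 0.33 to 0.62. The lowest counts came without *Smad2/3* cKO replicate 2 and without *Smad2/3* cKO + A83-01 replicate 4, and the highest without *Smad2/3* cKO replicate 4. Label numbers of 390 or more occurred in *Smad2/3* cKO replicates 3 and 4 and in no *Smad2/3* cKO + A83-01 sample. Without those samples 15 glycolysis genes were higher and 1 lower at that p, with a median of 0.71, and 2 SMAD2/3 targets were lower.

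**Figure D5:**
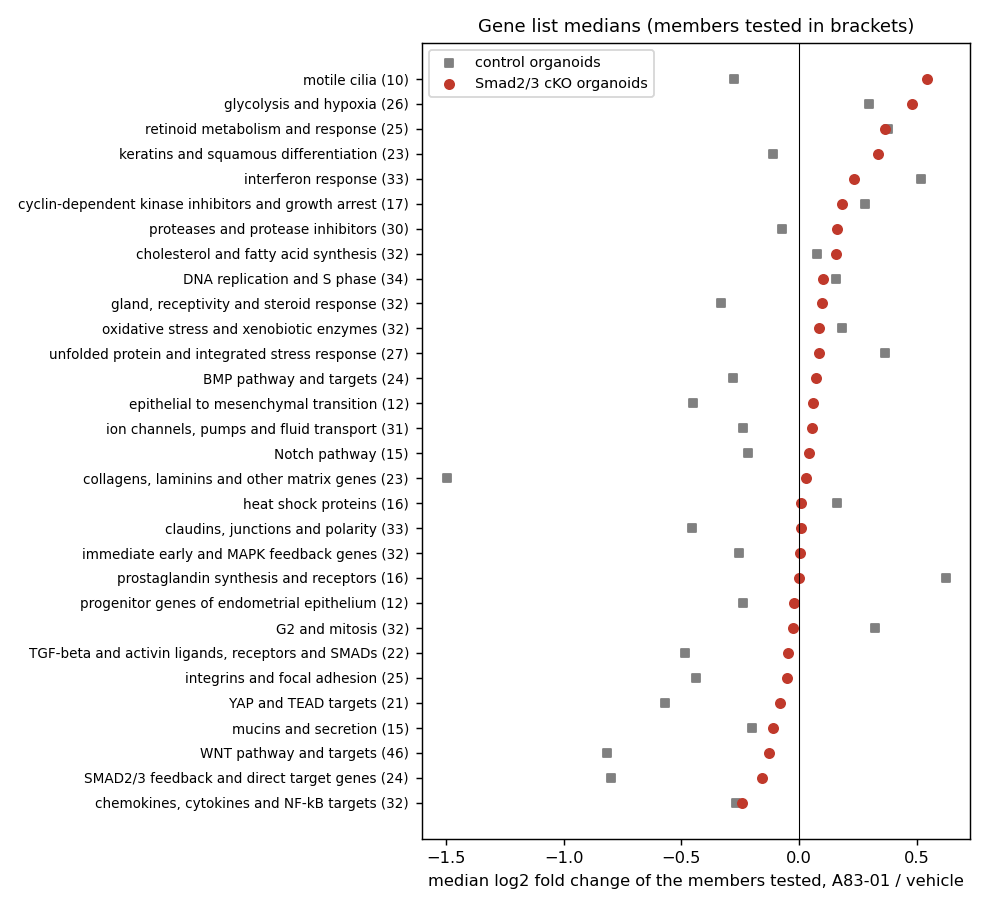
Median A83-01 log2 fold change over the tested members of each of 30 gene lists in *Smad2/3* cKO organoids (red circles) and control organoids (grey squares), with the number of members tested in *Smad2/3* cKO organoids in brackets. The red medians lie between −0.24 and 0.55. The grey medians are over the members tested in control organoids and reach −1.50 for matrix genes. Of those, 30 were tested in control and 23 in *Smad2/3* cKO organoids, so the 2 medians are not of the same genes.

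None of the other 24 lists had a called member in *Smad2/3* cKO organoids. For motile cilia the median of 10 genes was 0.55, the highest of the 30, with *Rsph9* the single member at an unadjusted p below 0.05. Of 23 matrix genes, 0 had that p and the median was 0.030. In control organoids the median was −1.50 over 30 genes, 3 of which fell. The minimum level was applied within each genotype, so the 2 medians cover different members. A gene high only in control + vehicle could enter the control median alone. *Fbln1* and *Fbln2*, the fibulins, which had the highest mean levels of that list, were at a log2 fold change of 0.26 (−0.39 to 0.92) and 0.36 (−0.86 to 1.59). Integrins and focal adhesion genes had a median of −0.053 over 25, with *Itga2*, the collagen-binding integrin subunit, at a log2 fold change of −1.08 (−2.09 to −0.067) and *Itga5*, the fibronectin-binding subunit that fell in control organoids, at a log2 fold change of −0.37 (−1.003 to 0.27). The list of genes of epithelial to mesenchymal transition had a median of 0.058 over 12.

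No gene of the epithelial identity and transport lists was called. The median was 0.33 over 23 keratin and squamous genes, 0.0086 over 33 claudin, junction and polarity genes and −0.11 over 15 mucin and secretion genes. *Krt17*, a stress keratin, was at 101, 49.3, 124 and 37 with vehicle and 71.7, 297, 295 and 265 with A83-01 (log2 fold change 1.53, interval 0.34 to 2.72), *Krt4* at a log2 fold change of 0.93 (0.073 to 1.79) and the claudin *Cldn8* at a log2 fold change of 1.26 (0.32 to 2.19). *Epcam* and *Krt8*, markers of epithelium, had intervals of −0.28 to 0.32 and −0.58 to 0.84. Among 31 genes of ion and fluid transport the median was 0.055. *Slc12a2*, which loads chloride into secretory cells, was at a log2 fold change of −0.55 (−0.99 to −0.099), and *Aqp5*, a water channel, at a log2 fold change of 0.72 (−0.01 to 1.45).

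In the protease list the median was 0.16 over 30, with *Prss8*, which activates the epithelial sodium channel, at 2934, 2598, 3061 and 3067 with vehicle and 3548, 4155, 3860 and 4077 with A83-01 (log2 fold change 0.42, interval 0.19 to 0.66) and *Mmp7*, a matrix protease of uterine epithelium, at 2490, 4469, 1675 and 963 with vehicle and 984, 1883, 435 and 452 with A83-01 (log2 fold change −1.404, interval −2.61 to −0.19, and −1.03 without *Smad2/3* cKO replicate 2). The list of gland, receptivity and steroid response genes had a median of 0.096 over 32. Prostaglandin genes had 0.0014 over 16, and the progenitor genes of endometrial epithelium −0.020 over 12.

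No gene of the cell cycle lists passed. The medians were 0.10 over 34 genes of DNA replication, −0.025 over 32 of G2 and mitosis and 0.18 over 17 inhibitors of the cycle. *Rrm2*, a subunit of ribonucleotide reductase that rose in control organoids from 2799, 3009 and 3895 to 10112, 8056, 15224 and 13580, was at 16367, 10152, 9976 and 14550 in *Smad2/3* cKO and 16761, 18067, 12614 and 14678 with A83-01. *Gadd45g*, which arrests growth, was at 404, 374, 458 and 526 with vehicle and 568, 608, 757 and 1072 with A83-01 (log2 fold change 0.74, interval 0.26 to 1.21).

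Among signalling and stress lists, the medians were −0.24 over 32 chemokine, cytokine and NF-κB genes, 0.23 over 33 interferon genes, 0.0030 over 32 immediate early genes, −0.081 over 21 YAP and TEAD targets and 0.044 over 15 Notch genes. With each library left out in turn, the median of 19 of the 30 lists lay on both sides of 0. That of the interferon list ran from −0.25, without *Smad2/3* cKO + A83-01 replicate 2, to 0.38, that of the chemokine list from −0.44 to 0.0077, the upper end without *Smad2/3* cKO replicate 1, that of the YAP and TEAD list from −0.28 to 0.16 and that of the mucin list from −0.302 to 0.27. The chemokine *Cxcl14* was at 158, 282, 329.8 and 297 with vehicle and 442, 451, 602 and 424 with A83-01, without overlap (log2 fold change 0.88, interval 0.34 to 1.43). The medians of cholesterol and fatty acid synthesis (32 genes), of oxidative stress and xenobiotic enzymes (32), of the unfolded protein and integrated stress response (27) and of heat shock proteins (16) were 0.16, 0.085, 0.084 and 0.0089. *Gstm1* and *Gstm2*, closely related glutathione transferases between which reads may have been split, were at a log2 fold change of 0.72 (0.16 to 1.27) and 0.81 (0.22 to 1.41), the cytochrome *Cyp2s1* at a log2 fold change of 1.35 (0.23 to 2.46) and the stress factor *Atf3* at a log2 fold change of 0.76 (0.35 to 1.17).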

How the data were processed

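RNA of mouse endometrial organoids (15 samples, ultra-low input libraries) had been quantified by the authors, and the deposited signal values are gene-level count estimates divided by a size factor per sample. The submitters' processing notes name Salmon 1.4.0, DESeq2 1.32.0 and GRCm39. Whole reads could not be recovered, so the depth of each sample is not known from the values and no count model was used. P-values are for a difference of group means, set against the spread between samples within groups. Samples were treated as independent. Samples were grouped by their labels, and 0 columns lacked a sample. Values were analysed as log2(normalized count + 1) with limma 3.58.1 (R 4.3.3, eBayes with trend), with a mean of at least 10 over the samples fitted, so that fold changes of low genes are understated. *Smad2/3* cKO and control organoids were fitted separately and the genotype difference over all 15 samples. The script was tested on simulated data.

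The gene lists, and the choice of this comparison, were made with earlier results of these data known. Genes were named if called in *Smad2/3* cKO organoids, if the study names them, if among the 5 highest or lowest called differences, or, in lists with under 2 calls, if among the 4 members of highest mean level. All others, such as those named for a low p, were chosen after their values were seen.

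Alternatives were other pseudocounts, filters, normalizations, weights, thresholds and covariates, a replicate block, and leaving out samples. Promoters are from a RefSeq table of GRCm38.p6, not the build of the quantification.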

Additional observations from a re-analysis of the deposited data

Results flagged for a closer look

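The A83-01 effect differed between the genotypes by a test of the difference itself. The log2 fold change with A83-01 was higher in *Smad2/3* cKO than in control organoids for 13 genes and lower for 59. Higher and lower refer here to that fold change and not to the level of the gene. The log2 differences of the named genes were 9.61 for *Fn1*, 6.85 for *Slc6a2*, 6.46 for *Kcng1*, 5.05 for *Bend5* and 4.71 for *Chrna1*. On the lower side they were −8.38 for *Car4*, −7.23 for *Slc46a2*, −6.96 for *Akr1b7*, −6.76 for *Nptx1*, −6.75 for *Cuzd1*, −5.77 for *Tgfb2*, −4.54 for *Cyp17a1*, −4.31 for *Akr1c18*, −4.02 for *Id4*, −3.52 for *Krt6b*, −3.43 for *Csf1*, −2.85 for *Lrat* and −2.302 for *Aqp8*. For genes with a group at or near 0 the size depends on the pseudocount and is no bound. *Slc6a2* and *Kcng1* were at 0 in every *Smad2/3* cKO organoid sample, so their differences only restate their falls in control organoids.

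One sample lay far from the other 3 of its group in 19 of 188 sets of 4 values examined. Chance gives about 1 in 20 for normally distributed values that did not choose the sets. Here the values were not on the log scale, and many genes were named after their values were seen. The 19 therefore cannot be set against that rate. In *Smad2/3* cKO the outlying values were normalized counts of 3372 for *Lyz2* and 351 for *Adgre1* (both replicate 2), 158 for *Fzd3* and 84.8 for *Baiap2l2* (both replicate 4), and a summed red blood cell marker level of 2.79. In *Smad2/3* cKO + A83-01, *Smad2* at 1211 and *Smad3* at 797 were both in replicate 2, as were *Ovgp1* at 2280, *Akr1c18* at 82169, *Aqp5* at 28774 and *Fst* at 32.4. Single high or low samples of that group also gave 9276 for *Nptx1*, 11582 for *Pfkl*, 71.7 for *Krt17*, 15633 for *Krt4*, 602 for *Cxcl14* and 1.08 for *Adgre1*, and sums of 172 for stromal and 5.22 for red blood cell markers.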

How the results depend on the processing

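The count of called genes in *Smad2/3* cKO organoids was 0 in each direction under every alternative fitted. The smallest adjusted p ranged from 0.031 (sample weights) to 0.458 (replicate block). The replicate numbers did not pair all of these samples, as given below, and a block on other pairs was not fitted. In control organoids the counts of higher and lower genes were 280 and 302 with sample weights, 474 and 481 at an adjusted p below 0.05, and 397 and 258 with all 15 samples in 1 fit. The higher count was 103 without the trend, and the lower count 212 with the number series (label numbers below 390 or not) as a covariate. Leaving out each sample gave 37 to 158 higher and 12 to 154 lower genes, and the counts moved by over 1.5 times without any 1 of the 3 vehicle samples or without control + A83-01 replicate 3 or 4. For the genotype difference the counts were 31 and 96 with sample weights, 70 and 138 at an adjusted p below 0.05, and 2 and 23 in samples with a label number below 390, while pseudocount 10 gave 38 higher. Leaving out each sample gave 3 to 16 higher and 34 to 64 lower genes. The lower count fell past 1.5 times without control + vehicle replicate 2 (34), *Smad2/3* cKO replicate 4 (38) or *Smad2/3* cKO + A83-01 replicate 3 (38). The higher count did so without any control + vehicle sample, control + A83-01 replicate 3 or 4, *Smad2/3* cKO replicate 1 or 4, or *Smad2/3* cKO + A83-01 replicate 2, 3 or 4. The cause was not tested.

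Of 1704 values for 78 named genes, 29 in 9 genes were on the other side of 0, and the 45 genes with an unadjusted p below 0.05 kept their side. *Chrna1* gave 0.00019 with pseudocount 0.1, 0.028 with quantile normalization and 0.13 with sample weights. *Id4* gave 0.0018 with quantile normalization and *Smad2* −0.013 with sample weights. With the number series as a covariate, and likewise without the *Smad2/3* cKO samples numbered 390 or more, *Chrna1* gave 0.37, *Wnt9a* 0.059, *Fzd3* 0.056 and *Angptl4* 0.11. Leaving out each sample gave −0.186 to 0.15 for *Chrna1*, −0.26 to 0.24 for *Id4*, −0.15 to 0.39 for *Id3*, −0.086 to 0.11 for *Smad2*, −0.296 to 0.10 for *Smad3*, −0.39 to 0.197 for *Angptl4* and −0.0096 to 0.24 for *Akr1c18*.

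The replicate numbers did not pair all *Smad2/3* cKO samples, since deviations from the group means correlated between same-numbered samples at −0.058, −0.161, 0.372 and 0.390. *Smad2/3* cKO replicate 2 and *Smad2/3* cKO + A83-01 replicate 1, which share a label number, correlated at 0.365, and *Smad2/3* cKO replicate 1 with *Smad2/3* cKO + A83-01 replicate 2 at 0.393. Both groups have 1 label number in common, no block on label numbers was fitted, and the replicate block put those samples in different blocks. In control organoids the 3 same-numbered pairs, which also share label numbers, correlated at 0.402, 0.392 and 0.332, and the replicate block gave 211 higher and 188 lower genes. It gave 10 and 53 for the genotype difference and 0 in *Smad2/3* cKO organoids.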
